A study of Homo sapiens with 16 samples.

Results

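Of the series' 16 arrays, 6 are described here, 3 of H4 and 3 of 42MGBA, all of cells without functional STAG2. They were chosen by their titles. The H4 arrays were the parental cells, labelled STAG2 mutant, and the non-recombinant clones 10 and 12, also labelled mutant. The 42MGBA arrays were the mutant parental cells and clones 53 and 92, which carry a STAG2 knock-in before Cre recombination and are labelled deficient. Both lines are established human lines that the labels call glioblastoma cells. For reference, 3 post-Cre knock-in clones of each line (8-1, 8-3 and 88-1 of H4, 53-1, 53-7 and 92-6 of 42MGBA) are labelled STAG2-corrected, and 4 arrays came from clones of the colorectal line HCT116, which is STAG2 wild-type in clones 24 and 27 and STAG2-knockout in clones 7 and 21. All cultures were untreated and growing. Each line is 1 tumour's cells, so every p-value below measures the spread between cultures and clones of a line, which may be technical, and not the spread between tumours.

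STAG2 is 1 of the alternative STAG subunits of cohesin, a ring-shaped complex that keeps sister chromatids paired until anaphase and shapes chromatin loops. Cells without STAG2 keep cohesin rings that carry its paralogue STAG1, and loss of STAG2 recurs in glioblastoma and in bladder and bone tumours. Glioblastoma lines differ widely from each other, some with glial progenitor genes and others with a mesenchymal profile of collagens and contractile proteins. The comparison shows how far apart the transcriptomes of these STAG2-deficient lines lie.

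The deposited log2 values of the 42MGBA arrays are on another scale: their medians were 5.001 to 5.047, against 6.23 to 6.30 on the other 10 arrays. Every value was therefore turned into a percentile, the position of a row among the 33297 rows of its own array from 0 to 100, and differences are in percentile points, H4 minus 42MGBA. Near the top of the range a percentile can move only by little, so small differences of abundant transcripts carry no size on a fold scale. Percentiles of the H4 arrays correlated with each other at r of 0.987 to 0.992 over all rows, those of 42MGBA at 0.985 to 0.988, and the lines with each other at 0.896 to 0.911. H4 and HCT116 arrays correlated at 0.938 to 0.950, above the pairs of brain tumour lines. Because all 42MGBA arrays share the other scale, line and array processing cannot be told apart, and the HCT116 value is given beside the H4 and 42MGBA values as a reference on the H4 scale.

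Of 11828 genes tested, 4405 were higher in H4 (37.2%) and 4178 lower (35.3%) at an adjusted p under 0.05 in limma. The arrays of the lines did not overlap for 8993 genes (76.0%). The median absolute difference was 6.90 points, against a median SD within a line of 1.55 points in H4 and 1.54 in 42MGBA. A difference of 25 points or more was reached by 476 genes higher in H4 (4.02%) and 257 lower (2.17%). With the log2 values only centred on each array's median, the median gene shifted by 0.29 log2 units toward H4 and the split was 5770 higher and 3099 lower. Without the filter on low values, 5762 of 18417 genes were higher (31.3%) and 6148 lower (33.4%). A gene can pass that filter through the line in which it is high, and such a gene had to differ. The counts over gene lists below are therefore given for the members tested, to be read against 37.2% and 35.3%, and where a list leans one way also for every member on the array, to be read against 31.3% and 33.4%.

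The same difference was measured in the corrected clones, arrays not used to filter or rank genes here. There 4509 genes were higher in H4 (38.1%) and 4542 lower (38.4%). Of the 4405 genes higher in the deficient arrays, 4011 were higher again (91.1% of these and 89% of the corrected list), and of the 4178 lower genes 3882 were lower again (92.9% and 85.5%). Of the genes that differed by 25 points or more, 472 of 476 and 256 of 257 passed in the same direction. Clones of the same lines share their line, so this shows agreement over clones only. The HCT116 mean lay nearer to H4 than to 42MGBA for 8328 of 11828 genes (70.4%), for 316 of the 476 much higher genes (66.4%) and for 222 of the 257 much lower ones (86.4%).

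**Figure D1:**
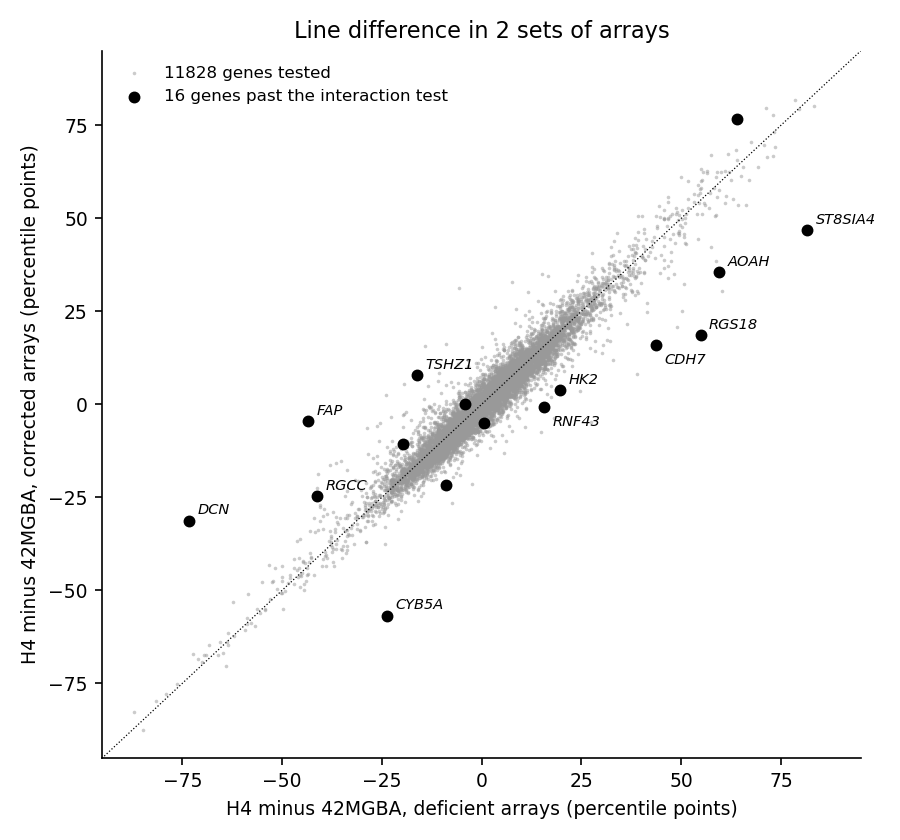
Each point is 1 of 11828 genes, with the H4 minus 42MGBA difference of the STAG2-deficient arrays on the x axis and that of the corrected arrays on the y axis, both in percentile points. Most points lie along the dotted line of equality, and the black points are the 16 genes whose line difference differed between the sets.

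STAG2 itself, the gene both lines lack in function, did not pass between them. It lay at percentiles 54.6, 60.5 and 55.5 in H4 (parental, clone 10, clone 12, the order used throughout) and at 45.8, 55.2 and 59.5 in 42MGBA (parental, clone 53, clone 92). The groups overlap, and the difference was 3.37 points (95% confidence interval -4.33 to 11.07, adjusted p 0.389 in limma). In the corrected clones STAG2 lay at 84.5, 84.2 and 83.5 in H4 and at 59.8, 55.9 and 58.0 in 42MGBA. Its transcript was thus higher in the H4 clones labelled corrected than in any deficient H4 array, while the 42MGBA clones labelled corrected overlapped the deficient ones. In HCT116 STAG2 lay at 87.3 and 87.3 in the wild-type clones 24 and 27 and at 54.8 and 62.8 in the knockout clones 7 and 21. Corrected H4 thus lay near the wild-type arrays, and corrected 42MGBA in the range of the knockout arrays. Why the transcript was no higher in the corrected 42MGBA clones was not tested. The cohesin paralogue STAG1 differed clearly. It lay at 86.1, 82.5 and 85.2 in H4 and at 60.9, 55.8 and 54.8 in 42MGBA, a difference of 27.42 points (SE 1.98, adjusted p 8.42e-06), with HCT116 at 79.9 to 83.5, near H4.

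Cohesin subunits and regulators were mostly higher in H4. Of the 17 of 19 members tested, 10 were higher, 1 was lower and 6 did not pass, where 37.2% of all genes tested were higher and 35.3% lower. Over all 19, 10 were higher and 2 lower without the filter, with a median of 4.06 points, against -0.32 over all 18417 genes. ESCO2, an acetyltransferase that establishes cohesion in S phase, lay at 73.5 ± 4.40 (SD, n = 3) in H4 and 48.1 ± 3.14 in 42MGBA, with HCT116 at 86.6. Its paralogue ESCO1 lay at 77.5 ± 3.41 and 59.1 ± 2.02. SMC1A, the X-linked core subunit of the ring, lay at 87.9 ± 1.38 and 70.0 ± 1.18. RAD21, the subunit that closes the ring, lay at 95.2 in both lines and did not pass. HDAC8, which recycles SMC3 by deacetylation, was the tested member lower in H4, at 73.8 against 77.2. HCT116 was nearer to H4 than to 42MGBA for 14 of the 17, against 70.4% of all genes tested.

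CYB5A and ST8SIA4, proposed as genes that mark the comparison, were picked with results within H4 known, so their behaviour there is no independent support. CYB5A encodes cytochrome b5, the electron donor of fatty acid desaturases and some cytochrome P450 reactions. It lay at 63.3, 69.9 and 73.3 in H4 and at 92.4, 92.8 and 92.3 in 42MGBA, 23.66 points lower (SE 2.30, adjusted p 3.68e-05), with no overlap. ST8SIA4 encodes the enzyme that builds polysialic acid on neural cell adhesion molecules. It lay at 89.2, 88.7 and 93.9 in H4 and at 9.39, 11.5 and 6.38 in 42MGBA, 81.53 points higher (SE 2.05, adjusted p 7.83e-08). HCT116 lay at 29.2 to 35.5 for ST8SIA4 and at 88.2 to 89.0 for CYB5A, so for these genes it was nearer to 42MGBA.

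In the corrected clones both marker differences had another size. CYB5A lay at 31.6, 39.8 and 35.2 in the H4 clones 8-1, 8-3 and 88-1 and at 91.8, 91.8 and 93.4 in the 42MGBA clones 53-1, 53-7 and 92-6, a difference of -56.79 points. ST8SIA4 lay at 55.6, 54.7 and 60.3 against 9.22, 11.1 and 9.96, a difference of 46.76 points. In both genes the H4 arrays moved between the sets, while all 6 42MGBA arrays lay between 91.8 and 93.4 for CYB5A and between 6.38 and 11.5 for ST8SIA4. H4 minus 42MGBA was 33.13 points higher in the deficient than in the corrected arrays for CYB5A (interaction, adjusted p 0.00196) and 34.77 points higher for ST8SIA4 (adjusted p 0.000417).

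Among the 20 sialyltransferases on the array, ST8SIA4 was the exception by size. Of 8 tested, 2 were higher in H4 and 5 lower (37.2% and 35.3% of all genes tested). Over all 20, 4 were higher and 11 lower without the filter (31.3% and 33.4% of all genes). The other tested one that was higher is ST3GAL4, at 72.2 against 65.6. ST3GAL5, the synthase of the ganglioside GM3, lay at 61.3 against 74.1. Among cytochrome b5, its reductases and desaturases, 6 of 12 tested were lower in H4 and 3 higher (35.3% and 37.2% of all genes tested). CYB5R3, the reductase that feeds electrons to cytochrome b5, lay at 86.7 against 95.6, and FADS2, a fatty acid desaturase, at 86.4 against 93.6. CYB5R4 was higher, at 70.7 against 61.3.

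The 12 protein-coding genes with the largest differences above zero differed by 66.20 to 83.24 points (adjusted p 2.00e-08 to 4.37e-07). KYNU, kynureninase of tryptophan breakdown, lay at 95.3, 98.2 and 97.5 in H4 and at 15.1, 13.1 and 13.1 in 42MGBA, the largest difference above zero of all genes tested. NETO2, an auxiliary subunit of kainate receptors, lay at 92.4, 89.2 and 90.7 against 12.4, 11.0 and 10.5. AKR1B10, an aldo-keto reductase of aldehydes and retinal, lay at 92.4, 95.9 and 88.6 against 12.3, 18.7 and 10.7. All 12 lay at 26.6 or less on every 42MGBA array and so passed the filter through H4 alone. The ranking also chose genes by this difference and by arrays that do not overlap. Their separation and p-values are therefore a description. HCT116 resembled 42MGBA in KYNU (12.1 to 17.7) and AKR1B10 (17.9 to 22.1), and lay nearer to H4 in NETO2 (72.6 to 81.6).

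Several of the 12 code for surface receptors or secreted signals. CDH6, a cadherin of kidney and neural crest, lay at 95.7, 96.0 and 92.7 in H4 and at 20.2, 22.6 and 22.01 in 42MGBA. F2RL2, a protease-activated receptor, lay at 93.2, 95.6 and 92.6 against 18.6, 25.3 and 22.9. IL13RA2, the decoy receptor of interleukin-13 that is known as a glioma surface antigen, lay at 89.6, 87.0 and 82.8 against 14.59, 15.7 and 15.4. HGF, the ligand of the receptor MET, lay at 89.2, 94.8 and 84.1 against 20.3, 22.3 and 22.8. SEMA3D, a secreted axon guidance cue, lay at 89.7, 95.2 and 88.2 against 26.6, 26.1 and 21.8. These 5 were chosen in the same way, and HCT116 was at the 42MGBA level in each, from 8.72 for the lowest IL13RA2 array to 33.3 for the highest CDH6 array.

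The remaining genes of that list have other roles. DIO2, the deiodinase that activates thyroid hormone, lay at 95.5, 95.8 and 95.6 in H4 and at 23.9, 24.9 and 25.9 in 42MGBA. EYA4, a transcriptional coactivator and phosphatase, lay at 88.4, 92.1 and 90.8 against 26.2, 25.3 and 18.6. CRISPLD1 lay at 87.8, 80.2 and 82.6 against 8.11, 13.6 and 8.82. In the corrected clones all 12 were higher in H4 again, by 46.76 (ST8SIA4) to 81.87 points (AKR1B10).

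**Figure D2:**
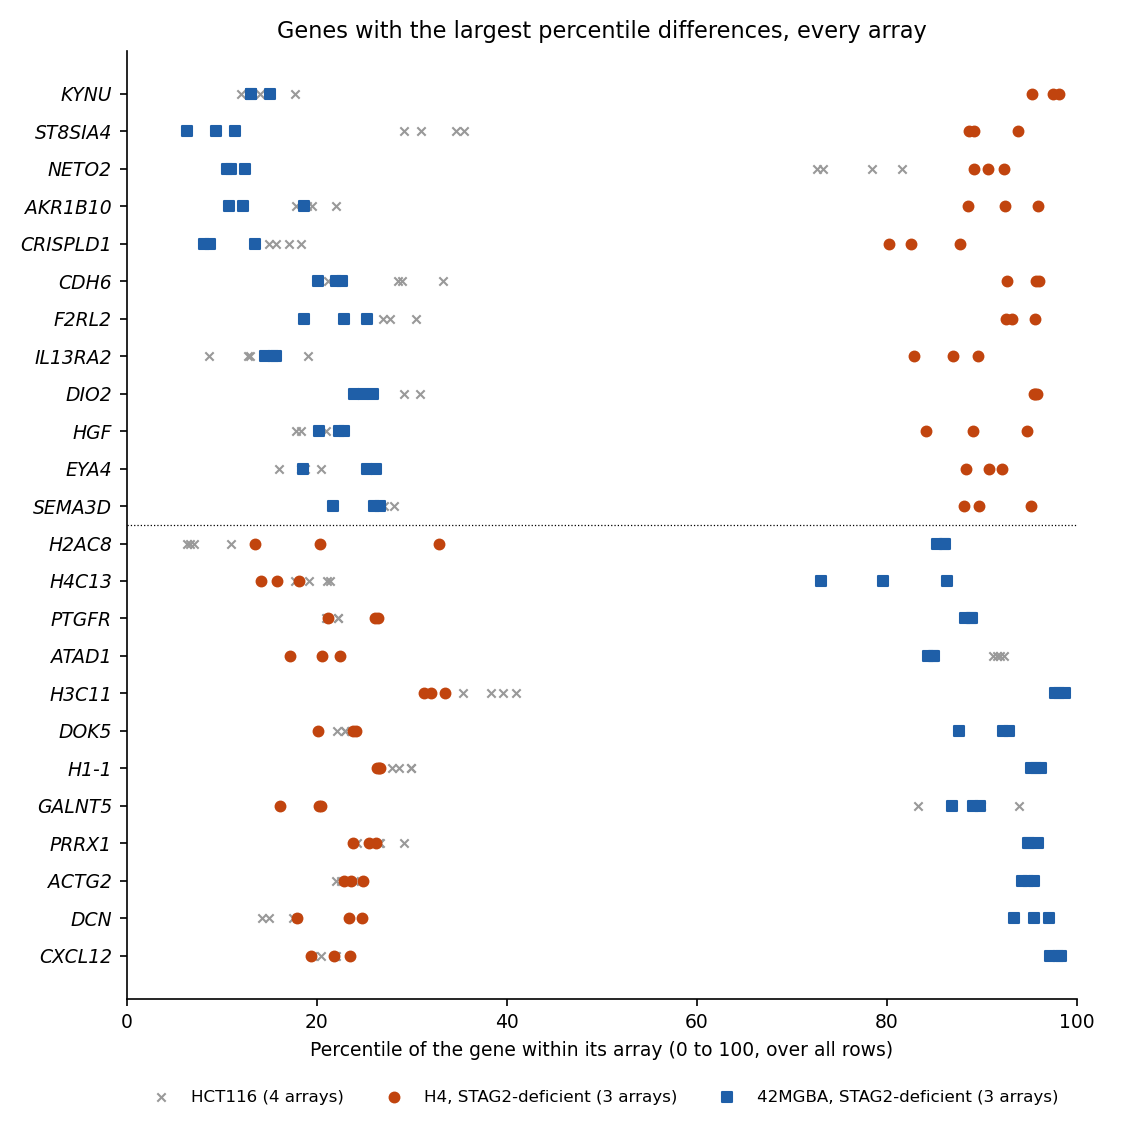
Percentile of each gene on every STAG2-deficient H4 array (circles) and 42MGBA array (squares) and every HCT116 array (crosses). Shown are the 12 largest differences in each direction among called protein-coding genes without overlap, Y-linked genes left out. Among genes above the dotted line the H4 circles lie at 80.2 or more and the 42MGBA squares at 26.6 or less, and below it the order is turned.

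The 12 protein-coding genes with the largest differences below zero, chosen by the same rule, ran from -76.29 to -63.57 points (limma adjusted p 2.00e-08 to 5.59e-06). All 12 lay at 33.5 or less on every H4 array and so passed the filter through 42MGBA alone. Their separation and p-values are likewise a description. CXCL12, the chemokine that acts on CXCR4, lay at 21.8, 19.4 and 23.5 in H4 and at 97.2, 98.4 and 98.0 in 42MGBA. DCN encodes decorin, a collagen-binding proteoglycan, and lay at 24.7, 23.5 and 17.9 against 95.5, 97.1 and 93.5. ACTG2, a smooth muscle actin, lay at 23.7, 22.9 and 24.9 against 94.9, 94.3 and 95.5. PRRX1, a homeobox factor of mesenchyme, lay at 26.3, 25.5 and 23.8 against 94.9, 95.9 and 95.04. All 4 are genes of mesenchymal or smooth muscle cells, and HCT116 lay near H4 in each, between 14.2 and 29.2.

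GALNT5, a starter enzyme of mucin-type O-glycans, lay at 16.2, 20.2 and 20.5 in H4 and at 89.8, 89.1 and 86.9 in 42MGBA, with HCT116 as high, at 83.4 to 93.9. DOK5, a docking protein of receptor tyrosine kinases, lay at 23.9, 20.2 and 24.1 against 87.7, 92.2 and 92.9. PTGFR, the receptor of prostaglandin F2-alpha, lay at 21.2, 26.5 and 26.2 against 89.0, 88.3 and 88.9. In DOK5 and PTGFR the HCT116 arrays were low, between 21.0 and 23.6.

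Another 4 of the 12 were histone genes of the chromosome 6 cluster: H1-1 (a linker histone), H3C11, H4C13 and H2AC8 (core histones). H1-1 lay at 26.7, 26.4 and 26.6 in H4 and at 96.3, 95.2 and 95.7 in 42MGBA. H3C11 lay at 31.4, 32.0 and 33.5 against 98.7, 97.8 and 98.2. H4C13 lay at 18.1, 14.1 and 15.8 against 86.3, 73.1 and 79.6, and H2AC8 at 20.3, 13.6 and 32.9 against 86.0, 86.1 and 85.4. Replication-dependent histone genes are near-identical copies whose transcripts mostly lack a poly(A) tail, so their probes may share signal and their values are uncertain. HCT116 lay between 6.37 and 41.0 in these 4, on the side of H4, and whether the array set or the line differs was not tested.

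ATAD1, an ATPase that extracts misplaced proteins from the mitochondrial outer membrane, lay at 17.2, 22.4 and 20.5 in H4 and at 84.9, 85.1 and 84.4 in 42MGBA, with HCT116 at 91.2 to 92.4. Here H4 stood apart from both other lines. Genes of the same region of chromosome 10 were looked at after that value was seen. PAPSS2, a sulphate donor synthase, lay at 28.5, 27.7 and 31.8 in H4 and at 83.5, 83.0 and 84.4 in 42MGBA (difference -54.33 points, adjusted p 1.08e-07), with HCT116 at 62.6 to 71.2. MINPP1, an inositol polyphosphate phosphatase, was higher in H4, at 92.9 against 82.7, and RNLS lay at 49.2 against 59.3. DNA copy number was not measured.

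The largest difference of all genes tested was in a small nucleolar RNA. SNORD114-2 lay at 6.23, 5.39 and 6.35 in H4 and at 94.1, 91.4 and 93.8 in 42MGBA (difference -87.12 points, SE 1.48, adjusted p 2.00e-08 in limma), with a mean of 7.64 in HCT116. It comes from the imprinted domain of chromosome 14 between DLK1 and DIO3, whose maternal allele is known to give the long RNA MEG3 and arrays of small nucleolar RNAs and microRNAs. This domain was looked at after that value was seen. Of 27 of its genes on the array 12 were tested, and all 12 were lower in H4 (35.3% of all genes tested). MEG3, the microRNA MIR494 and the small nucleolar RNAs tested had H4 means under the filter percentile. The filter thus favoured their direction, and the count of 12 is a description. Over the 27, 19 were lower and 1 higher without the filter (33.4% and 31.3% of all genes), with a median of -12.45 points.

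MEG3 itself lay at a mean of 42.1 in H4, 96.4 in 42MGBA and 43.2 in HCT116, a difference of -54.29 points. The other small nucleolar RNAs tested, SNORD113-3, SNORD113-4, SNORD114-3, SNORD114-6 and SNORD114-26, lay at means of 4.18 to 11.4 in H4 and of 76.5 to 90.4 in 42MGBA. They are members of families of similar copies, so probes may share signal between them, and all passed the filter through 42MGBA alone. Among the genes at the ends of the domain, DLK1, a Notch-related membrane protein read from the paternal allele, lay at 53.002 against 66.3, while DIO3 lay at 33.4 against 35.7 and was not tested. The paternal gene RTL1 lay at 26.4 and 27.6, also not tested. In the corrected clones MEG3 lay at 40.4 in H4 and 95.6 in 42MGBA.

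The labelled tissue was checked against cell type markers, and these were mixed. Among defining glial markers, GFAP lay at 49.9 in H4 and 44.6 in 42MGBA, S100B at 22.4 and 24.3, AQP4 at 16.4 and 8.71, OLIG2 at 35.5 and 30.8, and SOX2 at 41.5 and 29.7. None of these 5 passed the filter, and HCT116, a line that should lack them, lay between 17.5 (AQP4) and 49.5 (GFAP). Other members of the same lists were high. GJA1, the gap junction protein connexin 43 of astrocytes and many other cells, lay at 88.9 in H4 and 94.1 in 42MGBA, against 44.6 in HCT116. SOX9, a factor of glial progenitors and of intestinal epithelium, lay at 76.9 and 81.8, with HCT116 at 78.9, and the glutamate transporter SLC1A3 at 66.6 and 65.4, with HCT116 at 69.5. Epithelial genes were divided as well. CDH1 lay at 22.4 and 24.7 and EPCAM at 21.4 and 26.2, against 80.6 and 97.0 in HCT116, while CLDN3 lay at 65.9 and 69.9 against 74.1, the keratin KRT18 at 90.5 and 87.7 against 95.9, and KRT8 at 74.5 and 66.02 against 99.6. Of 7 epithelial genes tested 2 were lower in H4 and 0 higher (35.3% and 37.2% of all genes tested).

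In the astrocyte list 6 of 14 members were tested, 1 higher and 4 lower in H4. GLUL, glutamine synthetase, lay at 73.1 against 92.8 and APOE at 54.4 against 67.7, while CLU, the chaperone clusterin, was higher in H4 at 93.1 against 57.3. Genes of neural progenitors and the oligodendrocyte lineage were mostly lower in H4: of 11 tested, 10 were lower and 0 higher (35.3% and 37.2% of all genes tested), and the median over all 18 on the array was -9.96 points. PDGFRA, the growth factor receptor of oligodendrocyte progenitors, lay at 63.9, 53.1 and 47.4 in H4 and at 96.3, 96.4 and 95.6 in 42MGBA (difference -41.30, SE 3.60, adjusted p 2.09e-05). The transcription factor NKX2-2 lay at 42.6, 39.98 and 36.3 against 74.0, 77.8 and 76.3, and the proteoglycan CSPG4 (NG2) at 29.2, 29.0 and 30.2 against 57.8, 59.7 and 58.6. NKX2-2, CSPG4 and NES, another member lower in H4, lay under the filter percentile on every H4 array. These genes passed the filter through 42MGBA alone, so their direction is a description and the filter favoured the count of lower members. Without the filter 13 of 18 were lower and 4 higher (33.4% and 31.3% of all genes), so the filter also shapes the count of higher members.

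Of 8 neuronal genes tested 3 were higher and 4 lower, where 37.2% and 35.3% of all genes tested were, and of all 19 on the array 5 were higher and 6 lower. UCHL1, a neuronal ubiquitin hydrolase, lay at 98.0, 98.5 and 98.3 in H4 and at 53.6, 55.9 and 47.9 in 42MGBA. SNAP25, a synaptic fusion protein, had the opposite order, at 48.9, 46.4 and 48.6 against 79.8, 84.7 and 84.6. Markers of other cell types were few. Of 3 endothelial genes tested 2 were lower in H4 and 0 higher, while PECAM1, CDH5, TEK and VWF lay at 35.4 or less in both lines. Of 2 melanocytic genes tested none passed. Both tested members of the haematopoietic list were higher in H4. CD68, also a lysosomal protein of many cells, lay at 78.8 against 68.6, and NCAM2, a neural adhesion molecule rather than a blood cell marker, at 66.9 against 25.5, while PTPRC lay at 8.30 and 13.6.

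Mesenchymal transcription factors and cytoskeletal genes were mostly lower in H4. Of 16 tested, 13 were lower, 2 higher and 1 did not pass, where 35.3% of all genes tested were lower and 37.2% higher, and the median over 17 was -11.85 points. Without the filter 13 of the 17 were lower and 3 higher (33.4% and 31.3% of all genes). The median over the 16 was -12.99 points in the deficient arrays and -3.69 in the corrected ones. After PRRX1, described above, the actin-binding protein TAGLN lay at 45.3, 36.0 and 41.7 in H4 against 86.4, 77.1 and 84.5 in 42MGBA. The tropomyosin TPM2 lay at 58.1, 56.1 and 55.4 against 94.6, 94.3 and 94.5, and the myosin light chain MYL9 at 63.8, 64.0 and 64.0 against 97.0, 96.4 and 96.3. TWIST2 lay at 69.1 against 91.4 and ZEB1 at 67.1 against 84.5. SNAI1, the Snail repressor of epithelial genes, went the other way, at 62.8, 69.0 and 68.3 against 33.5, 32.2 and 34.8. Vimentin (VIM) was near the top in both lines, at 96.3 and 98.7, and lay at 39.3 in HCT116.

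Collagens were higher in 42MGBA. Of 19 of 26 tested, 16 were lower in H4 and 1 higher, with a median of -10.75 points over the 26, against 35.3% of all genes tested that were lower. Without the filter 19 of the 26 were lower and 1 higher. COL1A2, a chain of type I collagen, lay at 49.1, 44.0 and 46.9 in H4 and at 99.8 in each 42MGBA array, with HCT116 at 44.3 to 46.6, the H4 level. COL1A2 passed the filter through 42MGBA alone. Its partner COL1A1 lay at 76.6, 65.6 and 71.0 against 99.6, 99.5 and 99.6. COL3A1 lay at 88.9, 58.9 and 71.6 against 99.3, 99.5 and 99.4, so the parental H4 array stood above its clones. COL6A3, a chain of type VI collagen, was near the top in both lines at 98.3 and 99.2. The X-linked basement membrane chain COL4A5 was the member higher in H4, at 61.5 against 51.5.

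Other matrix genes had the same direction, with 18 of 29 tested lower in H4, 5 higher and 6 not passing (35.3% of all genes tested were lower and 37.2% higher). Over all 33 on the array 19 were lower and 6 higher, with a median of -5.39 points. The small proteoglycan biglycan (BGN) lay at 52.6, 48.9 and 53.9 in H4 and at 94.3, 96.4 and 95.8 in 42MGBA. VCAN, the large proteoglycan versican, lay at 64.0, 42.9 and 30.3 against 94.0, 95.7 and 96.6, and periostin (POSTN) at 66.4, 39.4 and 50.7 against 92.6, 98.5 and 97.8. These H4 arrays differed widely among themselves, by over 25 points in each gene, yet none reached the 42MGBA range. The laminin chain LAMA2 was higher in H4, at 65.0 against 35.4. FN1, fibronectin, lay at 97.6 in both. MGP, an inhibitor of calcification, was high on too few arrays to be tested, at 57.3 in H4 and 7.96 in 42MGBA.

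Proteases and adhesion receptors held genes of both directions. Of 16 metalloprotease, TIMP and related genes tested, 4 were higher in H4 and 8 lower (37.2% and 35.3% of all genes tested). The stromelysin MMP3 lay at 92.8, 96.2 and 90.6 in H4 and at 79.5, 70.5 and 47.4 in 42MGBA. FAP, fibroblast activation protein, lay at 42.1, 21.2 and 27.0 against 74.2, 76.1 and 70.2. Of 13 integrin genes 5 were higher, near the share of all genes, and 3 lower. ITGA2, a collagen-binding chain, lay at 93.5, 96.5 and 95.8 against 38.1, 45.4 and 49.9, and ITGA11, another collagen-binding chain, at 38.5, 36.0 and 38.7 against 74.1, 77.5 and 78.9, so 2 collagen receptors had opposite orders. Among cadherins 4 of 7 tested were higher in H4 and 2 lower (37.2% and 35.3% of all genes tested). Without the filter 7 of 17 were higher and 2 lower (31.3% and 33.4% of all genes). CDH6, CDH7 and CDH12 passed the filter through H4 alone. CDH12 lay at 67.7, 73.0 and 65.5 against 15.4, 14.56 and 14.2, and the mesenchymal CDH11 at 78.3 against 96.1. Of 11 beta protocadherins tested 6 were higher and 2 lower (37.2% and 35.3% of all genes tested), and 5 and 3 of all 16 without the filter. PCDHB6 lay at 60.3 against 29.3 and PCDHB3 at 42.5 against 76.3.

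Metallothioneins, small zinc- and copper-binding proteins induced by metals, were lower in H4 in all 7 members tested of 9 on the array, where 35.3% of all genes tested were lower. Without the filter 8 of the 9 were lower and 1 higher. Their median over the 9 was -18.39 points. The largest difference was in MT1F, at 57.7, 53.2 and 56.2 in H4 and 91.3, 90.8 and 91.0 in 42MGBA (-35.35 points, SE 1.56, adjusted p 9.04e-07). MT1E lay at 60.1, 58.2 and 56.2 against 92.4, 93.2 and 91.1, MT1X at 75.2, 79.5 and 78.1 against 96.2, 96.0 and 95.8, and MT2A at 97.2, 97.8 and 96.5 against 99.9, 99.8 and 99.8. MT1H, not tested, lay at 45.6 against 37.1. HCT116 was nearer to H4 for 5 of the 7, close to the 70.4% of all genes tested, and was at the 42MGBA level for MT1E, at 92.5 to 93.7. The family's coding sequences are much alike, so probes may share signal between members. Because these members lay on the same side together, the promoters of MT1X and MT2A are printed from RefSeq (GRCh38.p14), the 250 bases before the start of transcription. Capitals mark the core of the metal response element, TGCGCNC or TGCACNC, on both strands, the site known to bind the metal-sensing factor MTF1.
MT1X promoter, chr16:56682220-56682469, plus strand: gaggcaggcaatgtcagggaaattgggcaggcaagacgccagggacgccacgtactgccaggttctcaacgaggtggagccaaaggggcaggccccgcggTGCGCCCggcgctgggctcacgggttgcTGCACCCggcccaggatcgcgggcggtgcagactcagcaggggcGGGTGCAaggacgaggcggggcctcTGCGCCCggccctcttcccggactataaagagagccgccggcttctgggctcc
MT2A promoter, chr16:56608334-56608583, plus strand: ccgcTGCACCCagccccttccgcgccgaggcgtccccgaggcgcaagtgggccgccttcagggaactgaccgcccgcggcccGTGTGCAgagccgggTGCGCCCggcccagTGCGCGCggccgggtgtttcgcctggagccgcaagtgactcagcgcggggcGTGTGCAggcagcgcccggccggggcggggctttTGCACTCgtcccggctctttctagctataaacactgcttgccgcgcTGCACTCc
MT1X held 4 matches and MT2A 7. Of the 9 members, 4 had an entry in the promoter table and all 4 held a match, MT1B 3 and MT1H 8 beside these. The core was found in 24.7% of all 27305 promoters of that length and in 33.0% of the 9485 of genes tested. MT1H, with the most matches, was not lower in H4.

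Genes of detoxification and drug transport were mostly higher in H4. Of 21 tested of 25, 19 were higher, 1 lower and 1 did not pass, with a median of 12.58 points over the 25, against 37.2% of all genes tested that were higher. Without the filter 20 of the 25 were higher and 3 lower. Among the transporters that pump drugs out of cells, ABCB1 (P-glycoprotein) lay at 77.3, 81.2 and 78.3 in H4 and at 17.6, 21.3 and 18.3 in 42MGBA. ABCG2 lay at 77.1, 84.2 and 72.2 against 31.7, 28.5 and 27.7, and ABCC2 at 86.1, 97.6 and 72.9 against 36.4, 37.0 and 36.2. ABCC2 spanned over 24 points within H4. All of these transporters lay under the filter percentile in every 42MGBA array and so passed the filter through H4 alone. Their lack of overlap followed from the filter and is a description.

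The enzymes of that list followed. AKR1C1 and AKR1C2, near-identical steroid and carbonyl reductases that may share probe signal, lay at 98.1 against 75.7 and at 94.2 against 60.5. GCLC, the catalytic subunit of the enzyme that limits glutathione synthesis, lay at 94.6, 97.8 and 95.9 against 64.7, 65.4 and 67.8. Its regulatory partner GCLM lay at 84.6, 91.1 and 87.2 against 80.3, 78.3 and 79.1, and the thioredoxin reductase TXNRD1 at 99.0, 99.6 and 99.3 against 96.3, 95.2 and 96.4. GSTT1, a glutathione transferase whose gene is often deleted in people, was the member lower in H4, at 30.8, 31.2 and 34.4 against 72.8, 78.1 and 76.2, with HCT116 at the H4 level, at 31.9 to 35.5. HCT116 was nearer to H4 for 6 of the 21, against 70.4% of all genes tested. Many of these genes are known targets of NRF2, which binds the antioxidant response element with core TGACNNNGC, marked in capitals in the promoters of the 2 tested members that were higher in H4 and hold it (RefSeq, GRCh38.p14, 250 bases before the start).
GCLM promoter, chr1:93909431-93909680, minus strand: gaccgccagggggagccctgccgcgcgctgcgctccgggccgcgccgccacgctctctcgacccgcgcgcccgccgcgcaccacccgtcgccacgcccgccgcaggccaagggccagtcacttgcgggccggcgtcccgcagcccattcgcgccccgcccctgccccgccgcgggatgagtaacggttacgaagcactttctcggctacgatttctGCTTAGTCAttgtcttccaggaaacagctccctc
TXNRD1 promoter, chr12:104215529-104215778, plus strand: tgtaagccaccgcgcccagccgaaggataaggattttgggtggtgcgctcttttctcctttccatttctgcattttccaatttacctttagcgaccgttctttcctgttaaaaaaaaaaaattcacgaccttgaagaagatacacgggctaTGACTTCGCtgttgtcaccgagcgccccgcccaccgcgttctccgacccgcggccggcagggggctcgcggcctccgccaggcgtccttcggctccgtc
Of 25 members 18 had an entry and 4 of them a match on either strand, the other two being GSTM1 and GSTP1. The core was found in 11.0% of all promoters and in 12.3% of those of genes tested. A match is a description of letters and not of binding.

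Among growth factor ligands 11 of 20 tested were higher in H4 (37.2% of all genes tested) and 4 lower (35.3%). Over all 29 on the array it was 12 higher and 7 lower, with a median of 2.30 points. HGF, EGF, TGFA and KITLG lay under percentile 50 in every 42MGBA array and so passed the filter through H4 alone. Besides HGF, the epidermal growth factor EGF lay at 78.6, 85.9 and 79.99 in H4 and at 29.0, 32.1 and 33.1 in 42MGBA. TGFA, another ligand of its receptor, lay at 62.9, 53.3 and 63.3 against 20.7, 18.7 and 18.5. GDF15, a stress-induced cytokine, lay at 93.2, 97.6 and 95.2 against 48.7, 51.0 and 48.9, and KITLG at 74.7, 76.7 and 79.3 against 41.9, 29.7 and 44.0. Of 22 receptors tested 5 were higher and 9 lower, and 7 and 11 of all 27. MET, the receptor of HGF, lay at 92.7, 91.6 and 93.6 in H4 and at 47.9, 42.0 and 32.6 in 42MGBA, so ligand and receptor were both high in H4. MET, like HGF, passed the filter through H4 alone, so their shared direction is a description. EGFR lay at 73.0 and 74.7 and did not pass. KIT, the receptor of KITLG, was lower in H4, at 40.3 against 57.5.

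**Figure D3:**
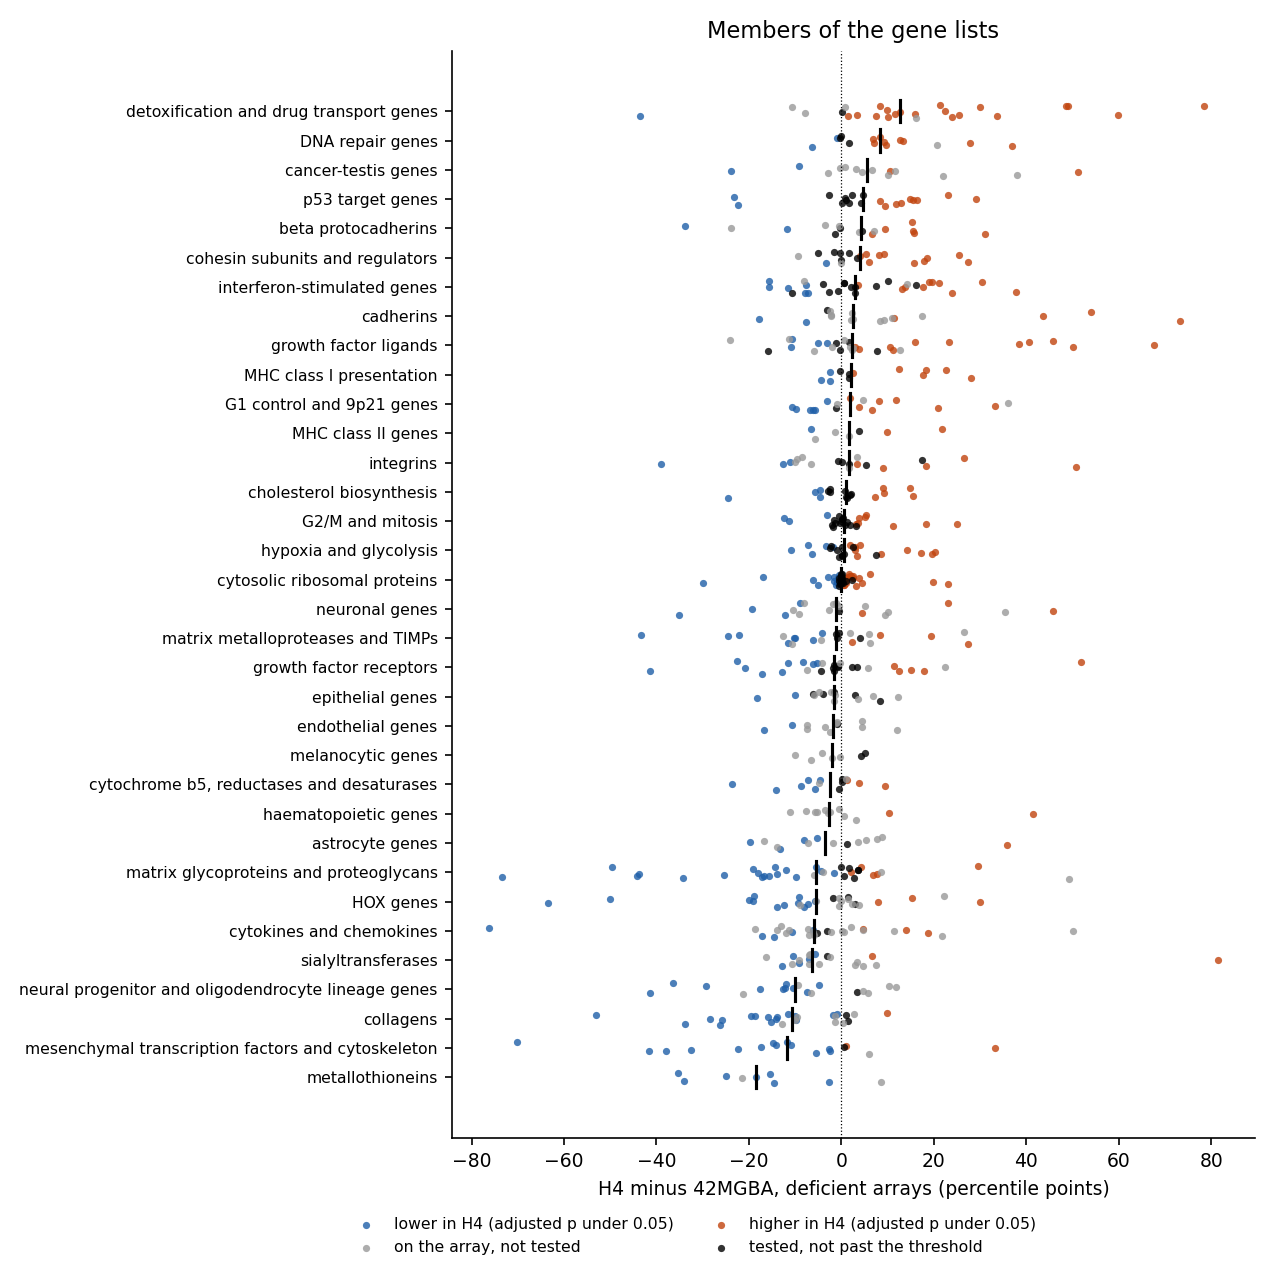
H4 minus 42MGBA difference in percentile points for every member on the array of each gene list, with a bar at the list's median. Detoxification genes have the highest median, at 12.58 points, and metallothioneins the lowest, at -18.39 points.

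HOX genes, which keep positional identity, were lower in H4 in 12 of 18 tested (35.3% of all genes tested) and higher in 3. Over all 27 on the array 14 were lower and 4 higher, against 33.4% and 31.3% of all genes without the filter, with a median of -5.44 points. The largest differences were in the HOXD cluster. HOXD10 lay at 23.1, 21.2 and 24.9 in H4 and at 85.2, 88.5 and 86.1 in 42MGBA, and HOXD11 at 35.4, 33.0 and 33.7 against 83.2, 83.9 and 85.2. HCT116 was at the H4 level in both. Both genes passed the filter through 42MGBA alone. HOXB9 was higher in H4, at 76.0, 75.7 and 78.6 against 52.3, 41.4 and 46.6. Of the cancer-testis genes 4 of 14 were tested. MAGEC1 lay at 81.4, 78.0 and 83.4 against 28.4, 29.5 and 31.5, and CTAG2 at 65.8, 62.8 and 65.0 against 88.9, 87.3 and 88.9.

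DNA repair genes were higher in H4 in 9 of 14 tested and lower in 2 (37.2% and 35.3% of all genes tested), with a median of 8.43 points over 15. Without the filter 10 of the 15 were higher and 2 lower (31.3% and 33.4% of all genes). HCT116 was nearer to H4 for 12 of the 14, against 70.4% of all genes tested. BRCA1, of homologous recombination, lay at 81.8, 77.5 and 79.5 in H4 and at 46.98, 38.9 and 41.9 in 42MGBA. The checkpoint kinase ATR lay at 75.5, 77.7 and 76.7 against 49.5, 49.3 and 47.6. BRCA1 and ATR lay under percentile 50 in every 42MGBA array and so passed the filter through H4 alone. MGMT, which repairs the lesion made by temozolomide, lay at 54.0 and 52.4 and did not pass. Among genes of G1 control 7 of 14 tested were higher and 6 lower, both shares above those of all genes tested (37.2% and 35.3%). RB1 lay at 80.4, 80.9 and 82.4 against 42.4, 52.2 and 49.8, with HCT116 at 85.4 to 86.8, so for RB1 the 42MGBA line stood apart. MTAP, a neighbour of CDKN2A, was at 26.2 and 27.0 in the brain tumour lines and at 90.4 in HCT116, and CDKN2A at 44.0 and 39.3, with HCT116 at 65.5. Neither was tested.

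Of 24 mitotic genes 8 were higher in H4, 3 lower and 13 did not pass (37.2% and 35.3% of all genes tested were higher and lower), with a median of 0.59 points. Their median level was 88.9 in H4 and 88.7 in 42MGBA, where percentiles can move little. CENPE, a kinetochore motor, lay at 72.9 against 47.9, and AURKB at 77.2 against 89.6. Of 19 p53 target genes 9 were higher and 2 lower, where 37.2% and 35.3% of all genes tested were. TIGAR, a regulator of glycolysis, lay at 77.1 against 48.0 and MDM2, the ligase of p53, at 91.4 against 78.6, while BBC3, which encodes the death protein PUMA, lay at 57.9 against 81.1. Hypoxia and glycolysis genes (10 of 25 higher, 5 lower) and cholesterol synthesis genes (5 of 17 higher, 4 lower) had medians of 0.47 and 0.97 points. The 46 ribosomal protein genes on the array, 16 higher and 13 lower, both shares somewhat below those of all genes tested (37.2% and 35.3%), had a median of -0.01 points. Near the top of the range these genes cannot differ by many percentile points, and RPL22 was an exception, at 55.2, 60.0 and 45.5 in H4 and 81.1, 83.9 and 85.5 in 42MGBA.

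Interferon-stimulated genes were higher in H4 in 10 of 28 tested and lower in 6, the first close to the 37.2% of all genes tested and the second below 35.3%. IFI27 lay at 94.1, 97.6 and 95.2 in H4 and at 55.4, 62.3 and 56.0 in 42MGBA, and IFITM1 at 72.1 against 87.7. Of 12 genes of MHC class I presentation 6 were higher and 3 lower (37.2% and 35.3% of all genes tested). The peptidase ERAP2 lay at 66.8, 72.2 and 54.4 against 34.1, 37.3 and 37.5. Of 4 class II genes tested 2 were higher and 1 lower. Of 10 cytokine and chemokine genes tested 3 were higher and 5 lower, CXCL12 with the largest difference. IL18, not tested, lay at 52.8 in H4 and 2.68 in 42MGBA, with HCT116 at 83.6.

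The calls were spread unevenly over chromosomes, where 37.2% of all genes tested were higher in H4 and 35.3% lower. On chromosome 20, 217 of 353 genes tested were lower in H4 and 44 higher, with a median of -5.56 points. Chromosome 14 (203 of 390 lower, 77 higher, median -3.20) and chromosome 22 (150 of 301 lower, 56 higher, median -3.48) had the same direction. On chromosome 4, 233 of 405 were higher and 86 lower (median 5.22), and on chromosome 13, 98 of 183 were higher and 42 lower (median 5.71). For these chromosomes HCT116 differed from 42MGBA in the same direction, with medians of -4.99 (20), -3.84 (14), -1.96 (22), 4.16 (4) and 9.31 (13). Chromosome 7 was different: 290 of 549 genes were higher in H4 and 120 lower (median 3.72), while HCT116 minus 42MGBA had a median of -0.77 and H4 minus HCT116 one of 3.20. Chromosome 5 had the same signs, with medians of 1.16, -1.38 and 1.52. On chromosome X, 191 of 369 were higher and 95 lower (median 3.84). There HCT116 minus 42MGBA had a median of 0.37 and H4 minus HCT116 one of 1.73. The H4 minus 42MGBA medians in the corrected clones had the same sign for each chromosome named here. DNA copy number was not measured, and its part in these values was not tested.

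**Figure D4:**
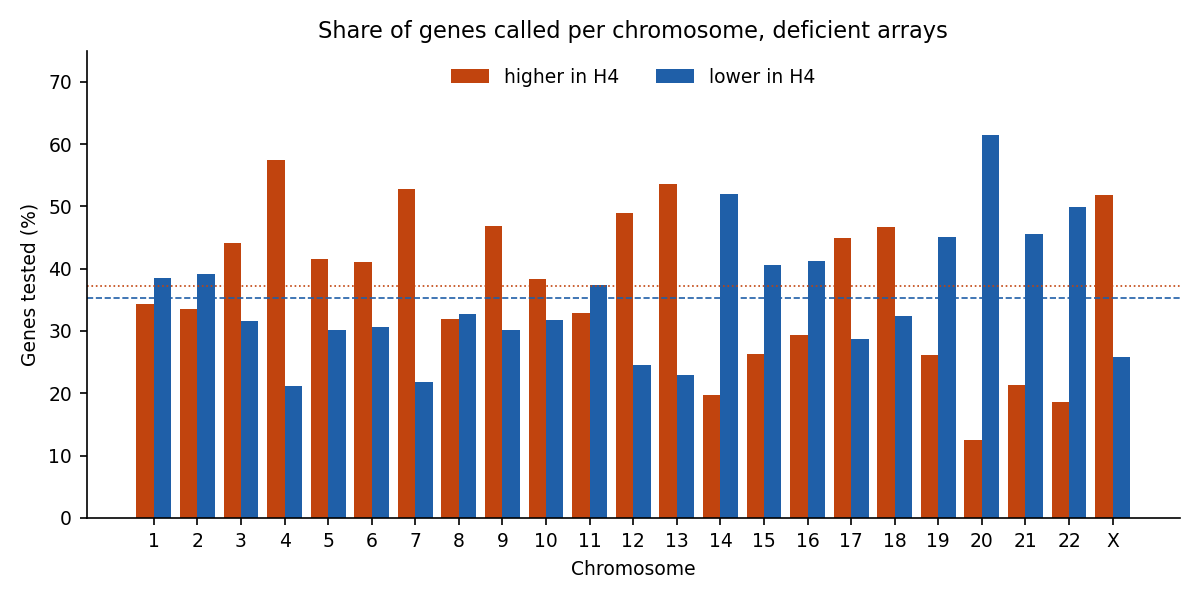
Share of the genes tested on each chromosome that were higher or lower in H4, STAG2-deficient arrays, in percent, with lines at the shares over all genes (dotted 37.2% higher, dashed 35.3% lower). Chromosome 20 has the highest share of lower genes, 61.5%, and chromosome 4 the highest share of higher genes, 57.5%.

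Where the line difference was compared between deficient and corrected arrays, 16 of 11828 genes passed (0.135%, limma interaction, 1160 at an unadjusted p under 0.05). The fit treated clones that share a first number, such as 53 and 53-1, as independent. CYB5A, ST8SIA4 and RGCC passed in each of the 12 fits that left out 1 array, TIMP2 in 9 and the other 12 genes in 1 to 4. RGCC, a regulator of the cell cycle induced by complement, lay at 51.8, 51.9 and 52.5 in deficient H4 and at 64.8, 68.6 and 67.4 in corrected H4, while 42MGBA was at 92.4 to 94.7 and 91.0 to 92.2. Its difference was 16.42 points further below zero in the deficient arrays (adjusted p 0.00266). TIMP2, an inhibitor of metalloproteases, differed by -4.22 points in the deficient arrays and did not pass in the corrected ones (adjusted p 0.992, interaction adjusted p 0.0143). HK2, the hexokinase of glycolysis, differed by 19.67 and 3.78 points (interaction adjusted p 0.0382).

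DCN and FAP, matrix genes with large line differences, belong to these 16. DCN lay at 17.9 to 24.7 in deficient H4 and at 57.9, 47.1 and 65.1 in corrected H4. Its 42MGBA arrays lay at 93.5 to 97.1 and, corrected, at 93.6, 94.4 and 75.8, so clone 92-6 was lower than its neighbours. FAP lay at 42.1, 21.2 and 27.0 in deficient and at 73.4, 60.0 and 67.9 in corrected H4, and at 67.4 to 76.9 in all 42MGBA arrays, so that the corrected H4 clones overlapped 42MGBA. In PSIP1 the 42MGBA arrays differed between the sets, from 16.8, 20.2 and 17.9 to 9.13, 8.93 and 9.58, with H4 at 80.6 to 86.2. In TSHZ1 both lines did: 42MGBA lay at 78.1, 75.1 and 76.0 in the deficient and at 70.5, 57.2 and 66.8 in the corrected arrays, and H4 at 59.3 to 60.6 and at 69.5 to 75.2. HK2 lay at 67.0 to 72.3 and 74.3 to 76.5 in 42MGBA, and at 87.3 to 91.2 and 76.5 to 81.1 in H4.

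**Figure D5:**
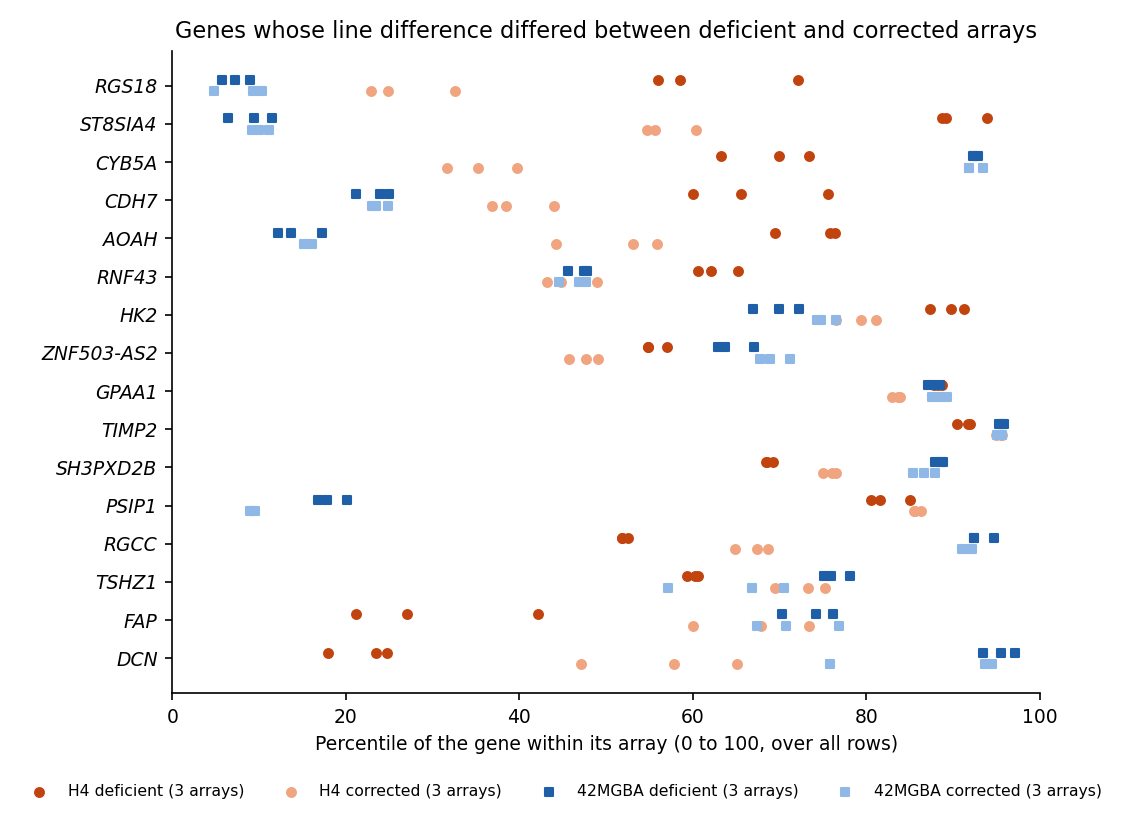
Percentiles on each H4 array (circles) and 42MGBA array (squares), deficient (dark) and corrected (light), for the 16 genes whose line difference differed between the sets. In CYB5A and ST8SIA4 the light H4 circles lie apart from the dark ones, while the squares of both sets coincide.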

How the data were processed

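RNA of 16 cultures (untreated, growing) was measured on Affymetrix Human Gene 1.0 ST arrays. The authors deposited log2 expression values for 33297 rows. The submitters' processing notes name RMA and Affymetrix Expression Console. Their versions are not given in the sources used here. The log2 scale was read from the range of the values. The number of arrays, 3 against 3, limits the precision.

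Each array was turned into percentiles over all rows. Of the rows, 19460 had 1 gene symbol, 1754 several and 12083 were not listed in the platform annotation. Symbols were updated through Entrez to RefSeq (GRCh38.p14) for 19429 rows, and 31 kept the older one. The row ranked highest on average in the 6 deficient arrays stood for each of 18417 genes, 769 of them with several rows. A gene was tested if it reached percentile 50 on at least 3 of those 6 arrays, which left 11828.

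The percentiles were compared by limma 3.58.1 (lmFit and eBayes with a variance trend, R 4.3.3). The deficient arrays and the corrected arrays had a fit each, and the 12 arrays together a fit of the interaction. P-values were two-sided, adjusted by Benjamini-Hochberg over all genes tested, with a threshold of 0.05. The procedure was tested on simulated data. The named genes were STAG2, STAG1, CYB5A, ST8SIA4, the 12 largest differences in each direction among called protein-coding genes without overlap, up to 4 members of each list with the smallest p, and 5 genes of the interaction. Y-linked genes were left out of the 12 largest differences. Other members are given as values of their list, and names chosen after their values were seen are said to be so. The 34 gene lists, written from textbook knowledge, have counts and medians and no set test. Members, lists and alternatives were chosen with earlier results of these data known. Alternatives were other scalings, filters, rows and fits and leaving out each array.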

Additional observations from a re-analysis of the deposited data

Results flagged for a closer look

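The difference between the lines differed between the STAG2-deficient and the corrected arrays for 16 genes in the interaction test of limma over 12 arrays. Values are H4 minus 42MGBA in the deficient arrays less the same in the corrected arrays, in percentile points. The value was above zero for RGS18 (36.29), ST8SIA4 (34.77), CYB5A (33.13), CDH7 (27.69), AOAH (24.03), RNF43 (16.49), HK2 (15.89), ZNF503-AS2 (12.80) and GPAA1 (5.49). It was below zero for DCN (-42.06), FAP (-38.78), TSHZ1 (-24.12), RGCC (-16.42), PSIP1 (-12.50), SH3PXD2B (-8.90) and TIMP2 (-4.22). RGS18, a regulator of G-protein signalling, lay at 58.5, 55.9 and 72.1 in deficient H4, at 24.8, 22.9 and 32.6 in corrected H4 and at 10.4 or less in all 42MGBA arrays. In TSHZ1 the order of the line means turned, from -16.30 points in the deficient to 7.82 points in the corrected arrays, both past the threshold (limma adjusted p 2.05e-05 and 0.0494). The corrected arrays overlapped, however, at 69.5 to 75.2 in H4 and 57.2 to 70.5 in 42MGBA. The TSHZ1 interaction passed in 4 of the 12 fits that left out 1 array. RNF43, a ligase that removes Wnt receptors, lay at 60.6 to 65.2 in deficient H4 and at 43.2 to 48.9 in corrected H4, the range of the 42MGBA arrays (44.6 to 47.8).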

How the results depend on the processing

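The counts in the deficient arrays stayed within 1.5 times under every alternative that was run: leaving out 1 array gave 4091 to 4322 genes higher and 3813 to 4079 lower, and leaving out both parental arrays 4057 and 3749. In the corrected arrays leaving out 1 array gave 4204 to 4420 higher and 4281 to 4401 lower. Without the filter the lower count there was 6890 of 18417 genes. The interaction count of 16 depended on single arrays, from 3 (without 42MGBA clone 53 or clone 92-6) to 44 (without the H4 parental array). It was 4 without H4 clone 8-1 or 8-3, 5 without 42MGBA clone 53-7, 6 without the 42MGBA parental array, 7 without clone 92, 8 without H4 clone 10, 5 without a variance trend and 12 on normal scores. For 149 named genes no alternative reversed a call: 2221 values kept their side of the threshold, 7 lost it and 7 gained it. CD68 lost it in 3 alternatives and PAGE5 in 4. For 10 lists, chosen after seeing the data, the count in the leading direction stayed within 1.5 times of that given. The count in the opposite direction did not without the filter for growth factor ligands (4 to 7 lower), detoxification (1 to 3 lower), cohesin (1 to 2 lower), metallothioneins (0 to 1 higher) and neural progenitor genes (0 to 4 higher). Detection over background was not used, so low percentiles bound nothing. No paired analysis of the deficient groups was possible because they share no clone numbers. The corrected 42MGBA clones 53-1, 53-7 and 92-6 carry the numbers of the deficient clones 53 and 92. H4 clones 8-1 and 8-3 share a first number. The interaction fit treated all 12 arrays as independent, so its p-values take no account of such relations.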

Other observations

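Rows with no gene in the annotation separated the lines about as often as rows with 1 gene: 5.22% of 12083 unlisted rows differed by 25 points or more, against 4.68% of 19460 rows with 1 symbol. Members of the lists that were high in too few arrays to be tested also differed. MAP2, a neuronal microtubule protein, lay at 46.5, 74.6 and 45.2 in H4, a mean of 55.4, against 19.96 in 42MGBA. CCND2 (cyclin D2) lay at 75.7 and 39.7, and MAGEC2 at 64.4 and 26.4. In the other direction the growth factor FGF7 lay at 22.03 and 46.1. These are means of 3 arrays with no test.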
